A study of Mus musculus with 11 samples.

Results

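The Hox genes encode homeodomain transcription factors that give cells along the body axis their regional identity. In the mouse they lie in 4 clusters (Hoxa on chromosome 6, Hoxb on 11, Hoxc on 15 and Hoxd on 2), and their order along a cluster follows their order of use: low paralogue numbers act in the hindbrain and the pharyngeal arches, middle numbers in the neck and chest, and high numbers in the lower trunk, the limbs and the tail. Neural crest cells and mesoderm both carry such a code, and parts of it persist in adult tissue. The members here were 33 Hox genes, out of 30142 genes in all: those whose array row was paired with exactly 1 symbol, namely 8 of Hoxa, 9 of Hoxb, 9 of Hoxc and 7 of Hoxd. Hoxa7, Hoxa9, Hoxb4, Hoxd3 and Hoxd4 were on rows with several symbols, so these 5 genes were not analysed here. Each member had a single row, so no choice between rows arose.

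The study compared a trio of organs from mice of the strain given as C57B6, of both sexes, at 2 months of age. The carotid body, the oxygen sensor at the fork of the carotid artery, was hybridised on 3 arrays, the adrenal medulla, which secretes adrenaline, on 4, and the superior cervical ganglion, a sympathetic ganglion of the neck, on 4. Each carotid body array held RNA pooled from 10 mice and each array of the other tissues RNA pooled from 3 mice, and the labels name no transgene, deletion or treatment. The array signals were made with robust multi-array averaging (RMA) and are read here as log2 values, although no source used here states the base. The highest value per array was 19.65 to 19.93 and 182 to 276 genes per array exceeded 16, the log2 ceiling of a 16-bit scan, so the scale is not certain and every fold below holds only if the base is 2. All 3 tissues derive their catecholamine cells from neural crest, which left the axis at different levels: as background, the ganglion from cervical levels, the adrenal medulla from the trunk, and the carotid body from the third pharyngeal arch together with cells from the ganglion.

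The dissected tissues held other cells too, and bulk RNA does not tell fewer cells of a type from less RNA per cell. All 10 adrenal cortex markers were called higher in adrenal medulla than in both other tissues (Cyp11b1, of corticosterone synthesis, read 19.49 to 19.74 there and 4.86 to 5.37 elsewhere), with a summed level of 21.23 to 21.42 (log2 of the sum over the list) against 9.19 to 9.42 (carotid body) and 8.88 to 9.13 (ganglion). All 9 measured fibroblast markers were called higher in carotid body than in both others (Col1a1, a collagen chain, read 14.02 to 14.43 there, 8.46 to 8.72 in adrenal medulla and 8.80 to 9.63 in ganglion), with summed levels of 18.22 to 18.36 against 13.17 to 13.37 in adrenal medulla and 16.06 to 16.23 in ganglion. Smooth muscle and pericyte markers were called higher in carotid body for 7 of 10 genes against adrenal medulla and 8 against ganglion (Acta2 165-fold and 386-fold), and adipocyte markers for 7 of 9 against each. The mast cell genes Cpa3, Mcpt4 and Tpsb2 were each at least 24.1-fold higher there in both comparisons. Of 8 measured glia and Schwann cell markers, 7 were called lower in adrenal medulla than in carotid body and 7 lower than in ganglion. Of the genes that define the labelled tissues, Th, the first enzyme of catecholamine synthesis, read at least 17.04 on every array. Pnmt, which makes adrenaline, read 13.39 to 14.77 in adrenal medulla and at most 5.67 elsewhere, and the neuronal tubulin Tubb3 16.96 to 17.63 in ganglion and at most 14.36 elsewhere. On carotid body replicate 3 the thyroid hormone precursor gene Tg read 18.56, against 5.04 and 5.13 on replicates 1 and 2. Replicate 2 stood apart in skeletal muscle genes, with Myh4 at 7.89 (4.81 and 4.91 on replicates 1 and 3) and Ckm at 7.15 (5.86 and 5.99). The carotid body arrays also differed in neuron and catecholamine RNA, with Prph at 13.16, 10.30 and 11.69 and Dbh at 19.11, 16.17 and 17.77 on replicates 1 to 3. Leaving out any of these arrays ended no Hox call of the carotid body and turned no direction. None of the 9 measured kidney markers had a mean above background in any tissue. The part that RNA of these other cell types had in the Hox values was not tested.

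The sequences that bear on the results are shown here, from RefSeq (GRCm38.p6). The 3 windows are the 250 bases before the start of Hoxa2 (chr6:52164832-52165081, minus strand), which was higher in carotid body, and of Hoxa5 (chr6:52204588-52204837, minus strand) and Hoxd8 (chr2:74704365-74704614, plus strand), which were both higher in adrenal medulla. Capitals mark matches, on either strand, to TGATNNAT (a site that HOX proteins bind together with PBX proteins), AGGTCA (a half-site of nuclear receptors such as those of retinoic acid), TATAAA (the TATA box) and CCAAT.
Hoxa2: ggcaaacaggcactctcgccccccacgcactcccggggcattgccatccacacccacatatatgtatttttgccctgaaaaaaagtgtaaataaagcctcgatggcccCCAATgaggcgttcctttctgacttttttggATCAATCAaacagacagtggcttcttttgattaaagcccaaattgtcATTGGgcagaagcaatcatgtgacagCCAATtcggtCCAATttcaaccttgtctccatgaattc
Hoxa5: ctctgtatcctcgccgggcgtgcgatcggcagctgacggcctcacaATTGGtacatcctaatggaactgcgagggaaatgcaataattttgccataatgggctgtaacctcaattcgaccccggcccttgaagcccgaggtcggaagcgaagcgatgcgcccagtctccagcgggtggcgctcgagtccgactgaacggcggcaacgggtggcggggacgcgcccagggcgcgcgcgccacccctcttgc
Hoxd8: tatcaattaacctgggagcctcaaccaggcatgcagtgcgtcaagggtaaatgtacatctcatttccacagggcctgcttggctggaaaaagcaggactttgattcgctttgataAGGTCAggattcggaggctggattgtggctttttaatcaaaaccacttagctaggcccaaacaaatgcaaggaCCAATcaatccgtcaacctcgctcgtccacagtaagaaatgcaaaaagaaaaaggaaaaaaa

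The Hoxa2 window held 5 matches, 1 to the HOX-PBX site on the minus strand of the window and the others to CCAAT. The Hoxa5 window held a CCAAT match only, and the Hoxd8 window an AGGTCA and a CCAAT match. Of 32851 mouse promoter windows of this length, 7.68% held TGATNNAT, 4607 windows held AGGTCA, 12.4% TATAAA and 33.8% CCAAT. Windows were found for 17 of the 33 members, of which 4 held TGATNNAT, 3 AGGTCA, 3 TATAAA and 12 CCAAT. The called members Hoxb8 and Hoxc4 had windows that are not shown. That of Hoxb8, higher in adrenal medulla, held 4 matches, to TGATNNAT, TATAAA and CCAAT, and that of Hoxc4 held 1, to AGGTCA. The TGATNNAT match was thus not particular to the gene higher in carotid body. These 17 were rich in CG dinucleotides as a group, with a median of 13 per window (19 windows) against 6 over all promoters. Of the windows shown, that of Hoxa5 held 28, and those of Hoxa2 and Hoxd8 held 6 each, no more than the median of all promoters. The matches describe the letters in these windows and nothing about binding.

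The clusters also hold microRNA genes, short RNAs that silence messenger RNAs with a matching seed, and the miR-196 family is known to target Hox messages such as Hoxb8. Their mature strands are shown with the seed (bases 2 to 8) in capitals, because rows named for them are described further on.
mmu-miR-196a-5p: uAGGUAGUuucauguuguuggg
mmu-miR-10b-5p: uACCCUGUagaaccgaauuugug
The first of these is encoded by both Mir196a-1, between Hoxb9 and Hoxb13 in the RefSeq gene order, and Mir196a-2, between Hoxc9 and Hoxc10, with the same mature sequence. The second lies in the Hoxd cluster, next to Hoxd4.

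Most members lay in the background range. For each tissue a background bound was taken from 540 vomeronasal receptor and keratin-associated protein genes, which were assumed silent: the 95th percentile of their means, 5.36 for adrenal medulla, 5.41 for carotid body and 5.45 for ganglion. By that bound 15 of 33 members had a mean above background in adrenal medulla (54.1% of all genes did), 7 in the carotid body (56.0%) and 5 in the ganglion (54.2%). In total 17 members were under the bound in all 3 tissues, with single arrays between 3.30 and 5.44: Hoxa4, Hoxa10, Hoxa11, Hoxa13, Hoxb1, Hoxb13, Hoxc5, Hoxc9, Hoxc10, Hoxc11, Hoxc12, Hoxc13, Hoxd1, Hoxd10, Hoxd11, Hoxd12 and Hoxd13. These include 13 of the 15 members with paralogue numbers 9 to 13, the exceptions being Hoxb9 and Hoxd9. Background differs between probe sets, so a mean under the bound does not show that a gene was silent, nor one just above it that the gene was active.

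The highest paralogue number above the bound differed between the tissues, cluster by cluster. In the Hoxa cluster it was 6 (Hoxa6) in adrenal medulla and 3 (Hoxa3) in carotid body, and no Hoxa member passed in ganglion. In the Hoxb cluster it was 9 (Hoxb9) in adrenal medulla and 3 (Hoxb3) in both other tissues. In the Hoxc cluster it was 8 (Hoxc8) in adrenal medulla and 6 (Hoxc6) in both others. The Hoxd cluster gave 9 (Hoxd9) in adrenal medulla and 8 (Hoxd8) in the others. Adrenal medulla thus had the highest number in every cluster, but Hoxd9, at 5.63 ± 0.18 (SD, n = 4) against 5.35 ± 0.16 (n = 3) and 5.30 ± 0.25 (n = 4), was close to the bound in all tissues. This order depended on the bound: at the 99th percentile no Hoxa member passed in adrenal medulla while Hoxa2 did in carotid body, and with olfactory receptor genes as the reference all 3 tissues reached 9 in Hoxd and carotid body and adrenal medulla both reached 9 in Hoxc. Without carotid body replicate 1 the carotid body value for Hoxd was 9, and without ganglion replicate 1 the ganglion value for Hoxa was 2.

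**Figure D1:**
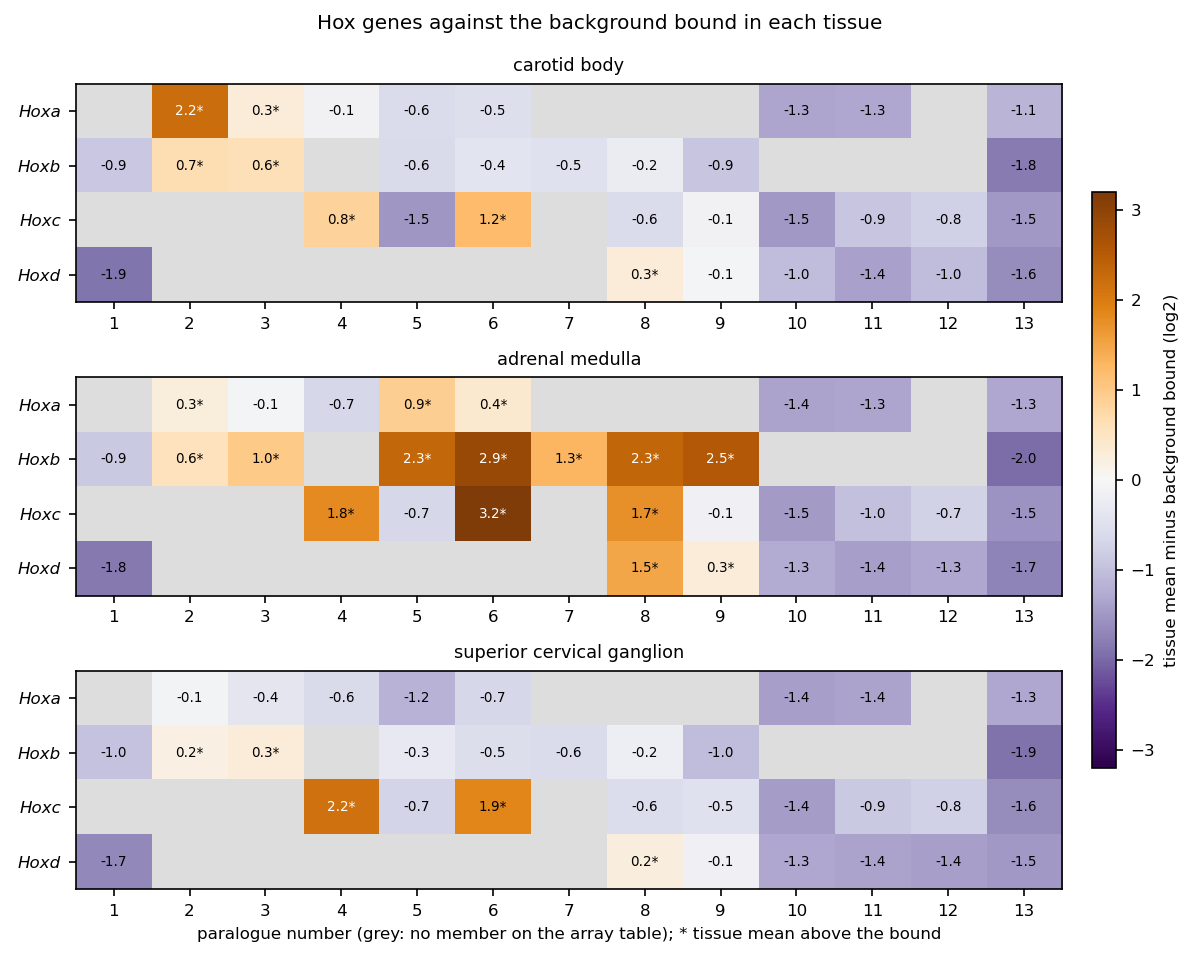
Tissue mean of each Hox member minus the background bound of that tissue (log2), by cluster (rows) and paralogue number (columns), for each tissue in a panel of its own; asterisks mark means above the bound and grey squares have no member. In adrenal medulla 15 members are above the bound and they run to Hoxb9 and Hoxd9, against 7 in carotid body and 5 in ganglion.

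The first comparison asks how the Hox code of the carotid body differs from that of the adrenal medulla. Hoxa2, the gene that specifies the second pharyngeal arch, was higher in carotid body, and 9 members with paralogue numbers 5 to 9 were lower, the Hoxb run from Hoxb5 to Hoxb9 among them. A gene was called at a limma adjusted p under 0.05 (Benjamini-Hochberg over the 30142 genes) and a log2 difference of at least 1, which is 2-fold. With 9 of 33 members called higher in adrenal medulla and 1 in carotid body, the members stood against backgrounds of 4.95% and 6.06% of all genes. The median difference over the 33 members was 0.03, close to the 0.05 of all genes, and 17 members were in the background range in every tissue. The arrays of 17 of 33 members did not overlap, against 38.3% of all genes, and all 12 members with numbers 4 to 8 were among them.

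The calls differed by paralogue number. Of 6 members with numbers 1 to 3, 1 was called (Hoxa2). Of 12 members with numbers 4 to 8, 8 were called, all lower in carotid body, and the median difference of the 12 was -1.59. Of 15 members with numbers 9 to 13, Hoxb9 alone was called and the median difference was 0.07. By cluster, 5 of 9 Hoxb members, 2 of 9 Hoxc members, 1 of 8 Hoxa members and 1 of 7 Hoxd members were called lower in carotid body.

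The comparison of adrenal medulla with ganglion sets organs of trunk and cervical crest side by side. Here 9 members were called higher in adrenal medulla and none in ganglion (1 in ganglion, Hoxd1, with no limit on the size of the difference), against 5.72% and 7.5% of all genes. At an unadjusted limma p under 0.05, 13 members were higher in adrenal medulla and 4 in ganglion. With no limit on size, 13 of 33 members passed the adjusted p, where 10363 of 30142 genes did. The 9 genes were Hoxa5, Hoxb5, Hoxb6, Hoxb7, Hoxb8, Hoxb9, Hoxc6, Hoxc8 and Hoxd8. They are the 9 also called lower in carotid body, and both comparisons share the 4 adrenal medulla arrays. The arrays of 14 of 33 members did not overlap, against 36.9% of all genes. The 10 adrenal cortex markers moved with these 9 members, all higher in adrenal medulla in both comparisons, and their part in the Hox values was not tested. The 12 members with numbers 4 to 8 had differences from -0.43 to 3.32, with 8 called, the 6 with numbers 1 to 3 a median of 0.25 with no call, and the 15 with numbers 9 to 13 a median of -0.05 with 1 call (Hoxb9), against -0.08 over all genes.

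The comparison of carotid body with ganglion sets the pharyngeal organ against a neighbour in the neck. It gave 2 called members of 33, Hoxa2 higher in carotid body and Hoxc4 higher in ganglion, where 5.61% and 8.28% of all genes were called in those directions. The share called, 6.06% of the members, was under the 13.9% of all genes called in either direction. The median difference over the members was 0.05 and 31 of 33 were not called. The arrays of 8 members did not overlap, against 35.9% of all genes. The differences of the Hoxb members from Hoxb5 to Hoxb9 lay between -0.36 and 0.09, where all 5 genes were under the bound in both tissues.

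**Figure D2:**
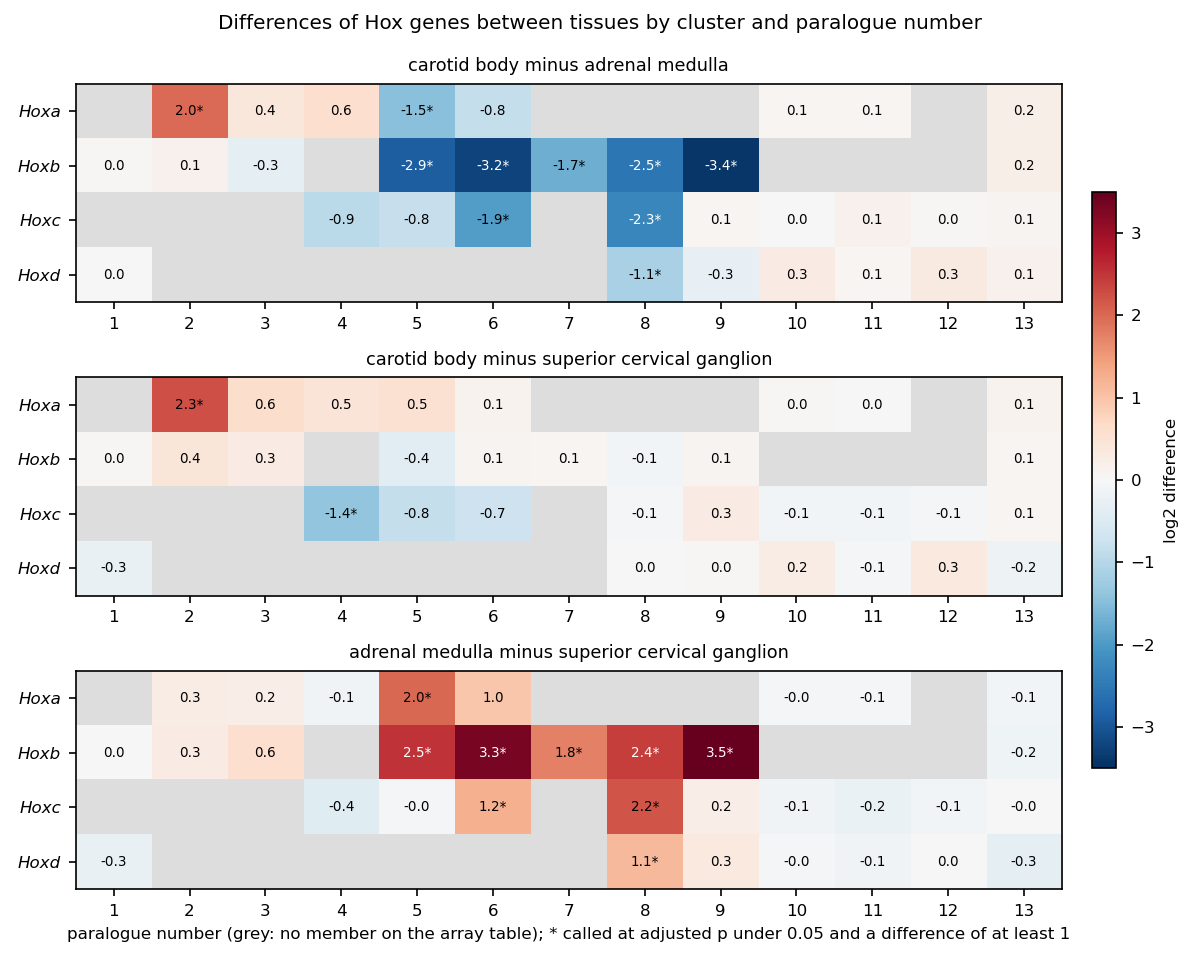
Log2 difference of each Hox member in the 3 comparisons, by cluster (rows) and paralogue number (columns); asterisks mark members called at an adjusted p under 0.05 and a difference of at least 1, and grey squares have no member. The called differences of adrenal medulla lie at paralogue numbers 5 to 9, and carotid body and ganglion differ in Hoxa2 and Hoxc4.

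Hoxb9, a gene of the thoracic axis, read 8.40, 7.97, 7.58 and 7.64 in adrenal medulla, 4.18, 4.62 and 4.69 in carotid body and 4.37, 4.60, 4.24 and 4.42 in ganglion, each tissue in the order of its replicate numbers, as for all members below. No adrenal medulla array overlapped another tissue, and all arrays of the other tissues were under the bound. Adrenal medulla was higher by 3.49 than ganglion (SE 0.18, limma adjusted p = 8.24e-08), at least 5.45-fold against the bound. The difference of carotid body from adrenal medulla was -3.40 (SE 0.20, adjusted p = 4.43e-07), at least 5.62-fold. This was the largest absolute difference of any member in both comparisons. Hoxb13, the next Hox gene of the cluster, read 3.30 to 3.81 on all arrays.

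Hoxb6, a gene of the trunk, read 8.54, 7.87, 8.08 and 8.44 in adrenal medulla, 4.53, 5.30 and 5.18 in carotid body and 5.30, 4.94, 4.73 and 4.70 in ganglion. Again every adrenal medulla array was above every other array. The difference from ganglion was 3.32 (SE 0.21, adjusted p = 3.83e-07), at least 6.88-fold. That from carotid body was at least 7.10-fold (adjusted p = 1.75e-06).

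Hoxb5, which is active in vagal and trunk neural crest, read 7.91, 7.46, 7.70 and 7.65 in adrenal medulla, 4.39, 5.10 and 4.88 in carotid body and 5.35, 5.09, 4.99 and 5.17 in ganglion. The adrenal medulla level was at least 4.69-fold that of ganglion (log2 2.53, SE 0.15, adjusted p = 2.59e-07) and at least 4.84-fold that of carotid body. Ganglion and carotid body arrays of this gene overlapped and were all under the bound.

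Hoxb8, a gene of the trunk spinal cord that is also known from myeloid cells, read 8.06, 7.46, 7.89 and 7.41 in adrenal medulla, 4.91, 5.33 and 5.25 in carotid body and 5.52, 5.26, 5.13 and 5.17 in ganglion. It was at least 4.70-fold higher in adrenal medulla than in ganglion and at least 4.91-fold higher than in carotid body (adjusted p = 5.88e-07 and 1.59e-06). A single array of the other tissues, ganglion replicate 1, was above its bound.

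Hoxb7, the remaining member of this run, read 6.93, 6.76, 6.61 and 6.27 in adrenal medulla, where replicate 4 was lowest. It read 4.67, 5.19 and 4.97 in carotid body and 5.04, 4.85, 4.65 and 4.94 in ganglion, all under the bound. Adrenal medulla was above ganglion by 1.77, at least 2.29-fold, and the difference of carotid body from adrenal medulla was -1.70, at least 2.36-fold (adjusted p = 5.01e-06 and 2.23e-05). On the low-number side of the run the contrast was smaller. Hoxb3, which patterns the hindbrain, read 6.27, 6.17, 6.36 and 6.56 in adrenal medulla, 5.82, 6.21 and 6.03 in carotid body and 6.03, 5.64, 5.66 and 5.65 in ganglion. Its difference between adrenal medulla and ganglion was 0.60 (adjusted p = 0.00285), under the 2-fold limit, although the arrays did not overlap. Hoxb2, a hindbrain gene, was above the bound in all tissues at means of 5.93, 6.08 and 5.64 in adrenal medulla, carotid body and ganglion and was not called.

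In the Hoxc cluster some members were above the bound in every tissue and Hoxc8 in adrenal medulla alone. Hoxc8, a mid-thoracic gene, read 6.91 to 7.43 in adrenal medulla (mean 7.11 ± 0.22, SD, n = 4), 4.47, 4.91 and 5.07 in carotid body and 4.91, 4.73, 5.16 and 4.79 in ganglion, where in the other tissues all arrays were under the bound. It was at least 3.15-fold higher in adrenal medulla than in ganglion and at least 3.25-fold higher than in carotid body (adjusted p = 8.81e-07 and 2.32e-06).

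Hoxc6, a gene of the lower neck and upper chest, was above the bound on all 11 arrays. It read 8.37, 8.40, 8.54 and 8.90 in adrenal medulla, 7.45, 7.30, 7.08 and 7.45 in ganglion and 6.29, 6.98 and 6.56 in carotid body. No tissue overlapped another. Adrenal medulla was 2.35-fold above ganglion (log2 1.23, SE 0.16, adjusted p = 0.000135) and 3.85-fold above carotid body (adjusted p = 1.26e-05). The difference of carotid body from ganglion, -0.71 (SE 0.18, adjusted p = 0.00916), was under the 2-fold limit.

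Hoxc4, a cervical gene, was the member with its highest mean in ganglion that passed the call rule. It read 8.04, 7.49, 7.17 and 7.76 in ganglion, 7.17, 7.17, 7.23 and 7.17 in adrenal medulla and 6.04, 6.37 and 6.30 in carotid body. Carotid body was 2.60-fold below ganglion (log2 difference -1.38, SE 0.17, adjusted p = 9.82e-05). Its difference from adrenal medulla, -0.94 (adjusted p = 0.00171), was under the limit, and was called without carotid body replicate 2, under median centring and under repeated quantile normalization. The difference of adrenal medulla from ganglion was -0.43, with overlapping arrays. Adrenal medulla replicates 1, 2 and 4 and ganglion replicate 3 held exactly the same value, 7.17, so the small SD of this gene in adrenal medulla does not measure the spread between pools in full. Such exact repeats were found for 19 of 33 members and for 55.5% of all genes.

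Hoxc5, their neighbour in the same cluster, was under the bound in every tissue and yet did not overlap between carotid body (3.64, 3.88 and 4.18) and either adrenal medulla (4.55 to 4.89) or ganglion (4.53 to 5.11). Its differences of -0.80 and -0.83 had adjusted p = 0.0032 and 0.00196 and were under the 2-fold limit. Hoxc4, Hoxc5 and Hoxc6 each had their lowest mean in carotid body.

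In the Hoxa and Hoxd clusters fewer members were called. Hoxa5, which acts in lung, gut and cervicothoracic skeleton, read 6.41, 6.32, 6.04 and 6.36 in adrenal medulla, 4.42, 4.14, 4.31 and 4.25 in ganglion and 4.38, 5.02 and 5.02 in carotid body. It was at least 1.78-fold higher in adrenal medulla than in ganglion, with a fitted difference of 2.00 (SE 0.15, adjusted p = 1.15e-06), and at least 1.83-fold higher than in carotid body, whose fitted difference from it was -1.47 (adjusted p = 3.95e-05). The fitted differences are larger than these bounds because both other tissues lay well under the background bound. Hoxa6, which acts beside it, averaged 5.74 ± 0.17 (n = 4) in adrenal medulla against 4.90 ± 0.16 (n = 3) and 4.78 ± 0.13 (n = 4). The arrays did not overlap, but the differences, -0.85 for carotid body minus adrenal medulla and 0.96 for adrenal medulla minus ganglion, were just under the limit, and the latter was called without adrenal medulla replicate 1, without ganglion replicate 1 and under either other scaling.

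Hoxd8, a trunk gene, read 6.84, 6.84, 6.93 and 6.74 in adrenal medulla, 5.48, 5.79 and 5.84 in carotid body and 5.83, 5.54, 5.61 and 5.82 in ganglion. The tissues of the neck overlapped each other and not adrenal medulla, which was 2.20-fold above both (adjusted p = 1.79e-05 against carotid body and 5.38e-06 against ganglion). The members Hoxd9 to Hoxd13 were not called in any comparison.

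Hoxa2 was the member called higher in carotid body. It read 7.15, 8.09 and 7.58 in carotid body, 5.48, 5.77, 5.77 and 5.49 in adrenal medulla and 5.16, 5.32, 5.17 and 5.77 in ganglion. No carotid body array overlapped the other tissues, and ganglion replicate 4 alone was above the ganglion bound. Carotid body was 3.96-fold above adrenal medulla (log2 1.98, SE 0.21, adjusted p = 4.1e-05) and at least 4.22-fold above ganglion (log2 2.26, SE 0.21, adjusted p = 1.39e-05). Without replicate 3, the array with the Tg signal, the differences were 2.00 and 2.27. Without replicate 2, on which Hoxa2 and the skeletal muscle genes were highest, they were 1.74 and 2.02. The fibroblast and adipocyte markers and most smooth muscle and pericyte markers had their highest mean in carotid body as well. So did the mast cell genes Cpa3, Mcpt4 and Tpsb2, while Kit was highest in ganglion and Des, Pdgfrb and Kcnj8 in adrenal medulla. The part of these cell types in the Hoxa2 value was not tested.

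Hoxa3, the gene without which the carotid body does not form in mice, read 5.30, 6.08 and 5.68 in carotid body. Its adrenal medulla values were 5.29, 5.29, 5.32 and 5.29 and its ganglion values 5.29, 4.95, 4.78 and 5.26, all under the bound. The carotid body mean of 5.69 was above the bound and all its arrays were above those of ganglion. The difference from ganglion was 0.62 (adjusted p = 0.0165), under the 2-fold limit, and on replicate 1 the carotid body value was itself under the bound. Hoxa4 had its highest mean in carotid body as well, at 5.29, but under the bound.

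**Figure D3:**
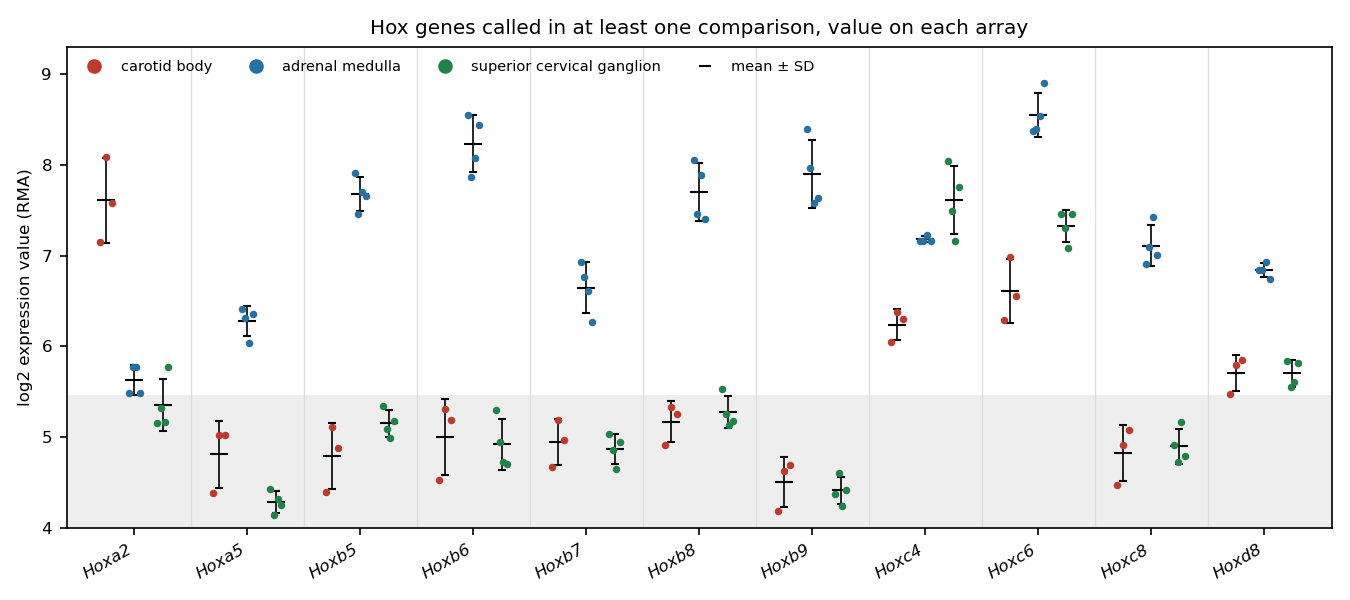
Log2 expression value on every array for the 11 Hox members called in at least 1 comparison, with 3 carotid body, 4 adrenal medulla and 4 ganglion arrays; bars are the mean ± SD and the grey band ends at the highest of the 3 background bounds, 5.45. For 9 members the adrenal medulla arrays stand above all others, for Hoxa2 the carotid body arrays do, and Hoxc4 overlaps between ganglion and adrenal medulla.

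HOX proteins find their sites together with partner proteins of the PBX, MEIS and PKNOX families. Of 8 measured partners, Meis2 and Pbx3 were called against adrenal medulla, and for these 2 carotid body was the lower tissue (4.95% of all genes were called that way). Both were called higher in adrenal medulla than in ganglion too (5.72% of all genes). Meis2 read 10.03, 9.96, 9.77 and 10.47 in adrenal medulla, 7.75, 7.79 and 7.79 in carotid body and 6.30, 6.08, 6.08 and 5.79 in ganglion. The tissues formed 3 separate levels, with adrenal medulla above ganglion by 4.00 on the log2 scale (SE 0.15, adjusted p = 6.81e-09) and 4.85-fold above carotid body, and carotid body 3.29-fold above ganglion. Pbx3 averaged 8.66 in adrenal medulla against 7.24 (carotid body) and 6.66 (ganglion), 2.67-fold and 3.99-fold lower. The adrenal cortex markers were higher in adrenal medulla as well, and their part in the Meis2 and Pbx3 values was not tested. The remaining partners stayed under the 2-fold limit in all comparisons, among them Meis1 (8.26, 8.72 and 8.52 in carotid body, adrenal medulla and ganglion) and Pbx2 (8.12, 8.16 and 8.35).

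Of 6 measured noncoding genes of the clusters, 2 were called lower in carotid body when set against adrenal medulla (4.95% of all genes were). The row named for Mir196a-1 read 5.77, 5.84, 5.87 and 6.32 in adrenal medulla, 4.70, 4.59 and 4.23 in carotid body and 4.75, 4.54, 4.23 and 4.64 in ganglion, so that it separated the tissues as its neighbour Hoxb9 did. The fitted difference of carotid body from adrenal medulla was -1.44 (adjusted p = 7.81e-05) and that of adrenal medulla from ganglion 1.41 (adjusted p = 3.24e-05), at least 1.46-fold and at least 1.41-fold against the bound. The adrenal cortex markers were higher in adrenal medulla too, and their part in the values of this row was not tested. The row of Mir196a-2, whose mature strand is the same, was not called in any comparison, at 5.54 to 6.45 over all arrays. The table does not say whether such rows measured the mature strand, the hairpin or the host transcript. The Mir10b row had a carotid body minus adrenal medulla difference of -1.37 (adjusted p = 0.0147), with all means under the bound, and was no longer called without carotid body replicate 2 (-1.17, adjusted p = 0.07). Hoxb3os, an antisense RNA of the Hoxb cluster, averaged 6.63, 5.90 and 6.25 in carotid body, adrenal medulla and ganglion and was not called.

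Cranial and pharyngeal regulators outside the clusters were measured for 27 of 30 listed genes. At both limits, on p and on size, 7 passed as higher and 1 as lower in carotid body when set against adrenal medulla (6.06% and 4.95% of all genes did), and 6 as higher and 1 as lower against ganglion (5.61% and 8.28%). At an unadjusted limma p under 0.05 the counts were 14 and 1, and 12 and 1. With no limit on size, 14 and 11 of the 27 passed the adjusted p, where 8833 and 10271 of 30142 genes did. Dlx5, a homeobox gene of the jaw and the pharyngeal arches, read 9.55, 10.52 and 10.56 in carotid body, 5.34 to 5.65 in adrenal medulla and 5.29 to 5.55 in ganglion, so that carotid body was at least 26.8-fold and at least 26.2-fold higher (adjusted p = 6.15e-08 and 8.85e-08). Dlx6, its neighbour gene, was at least 4.38-fold and at least 4.11-fold higher in carotid body, and Dlx2 6.21-fold and 5.14-fold. Prrx1, a gene of mesenchyme in face and limb, was 5.61-fold above adrenal medulla and at least 8.46-fold above ganglion. The fibroblast and adipocyte markers, most smooth muscle and pericyte markers and Cpa3, Mcpt4 and Tpsb2 had their highest mean in carotid body too. The part of these cell types in the values of this list was not tested. Msx2, Barx1 and Pax9 were the other 3 called higher than in adrenal medulla, named after their values were seen, and 16 listed genes, Otx2 and Emx2 among them, were under the bound everywhere.

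In this list Eya1, a co-activator of arch and ganglion development, went the other way. It was highest in ganglion at a mean of 15.34, against 13.69 in adrenal medulla and 12.50 in carotid body. Carotid body was 7.13-fold below ganglion (adjusted p = 4.82e-05). Its difference from adrenal medulla, -1.19, was -0.73 and not called without carotid body replicate 2. None of the 9 ParaHox and even-skipped genes (Cdx1, Cdx2, Evx1 and others), relatives of the Hox genes, was called by limma in any comparison (1, 0 and 3 at an unadjusted p under 0.05), and 7 of them were under the bound everywhere.

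Retinoic acid, made from vitamin A by ALDH1A enzymes, is a known inducer of Hox genes in the embryo. Of 18 measured genes of this pathway, carotid body had 3 called higher and 2 lower against adrenal medulla (6.06% and 4.95% of all genes). Against ganglion it had 3 higher and none lower (5.61% and 8.28% of all genes), with 1 lower at an unadjusted limma p under 0.05. Adrenal medulla had 6 called higher and 2 lower against ganglion (5.72% and 7.5% of all genes). Aldh1a3 averaged 8.73 ± 0.23 (SD, n = 4) in adrenal medulla and read 5.71, 5.81 and 5.96 in carotid body and 5.41 to 5.63 in ganglion, a 7.50-fold difference from carotid body (adjusted p = 4.06e-08) and at least 9.14-fold from ganglion. Aldh1a1 was 7.57-fold and 4.99-fold higher in carotid body and adrenal medulla than in ganglion. The retinoid receptor gene Rxrg was at least 6.16-fold higher in carotid body and at least 5.95-fold higher in ganglion than in adrenal medulla. Crabp1, a retinoic acid binding protein, was 4.69-fold below its adrenal medulla level in carotid body, and Dhrs3, which turns retinal back to retinol, was 5.53-fold and 3.95-fold higher in carotid body and adrenal medulla than in ganglion. Rbp4, the retinol carrier, was highest in carotid body, 2.73-fold above adrenal medulla and 6.05-fold above ganglion. The glia markers, such as Sox10, were lower in adrenal medulla than in both other tissues, as Rxrg was, and the 10 adrenal cortex markers were higher there, as Aldh1a3 and Crabp1 were. Against ganglion all 10 endothelium markers were called higher in carotid body and 8 in adrenal medulla, the direction of Aldh1a1 and Dhrs3. The part of these cell types in the values was not tested.

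Polycomb proteins keep Hox genes off outside their domains, and trithorax proteins keep them on within. All 17 measured Polycomb genes and all 11 measured genes of the trithorax group and its demethylases were above the bound in every tissue. No gene of either list was called between carotid body and adrenal medulla by limma at the 2-fold limit (7 of 17 and 4 of 11 had an unadjusted p under 0.05), and the median differences were 0.01 and -0.13. Phc1 alone of the 17 was called between adrenal medulla and ganglion, where 13.2% of all genes were. It was 2.30-fold higher in adrenal medulla (limma adjusted p = 8.64e-06). Eed, Men1 and Kdm6b were called between carotid body and ganglion, where 13.9% of all genes were. Their differences of 1.02, -1.09 and 1.06 were close to the limit. Each fell under it in at least 1 other setting: Eed at 0.92 without carotid body replicate 3, Men1 at -0.95 without ganglion replicate 1 and Kdm6b at 1.00 under median centring. Eed also fell under it without carotid body replicate 2 (0.96) and ganglion replicate 4 (0.98). Of 6 measured upstream regulators, 1 was called higher and 1 lower in adrenal medulla than in ganglion (5.72% and 7.5% of all genes). Gdf11, a signal that sets the trunk-to-tail transition, was 2.61-fold lower in adrenal medulla. Zbtb16 was higher there by 1.94 (limma adjusted p = 0.024). It was not called without adrenal medulla replicates 1 or 2 or ganglion replicates 1 or 4 (differences of 1.55, 1.78, 1.75 and 1.68).

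**Figure D4:**
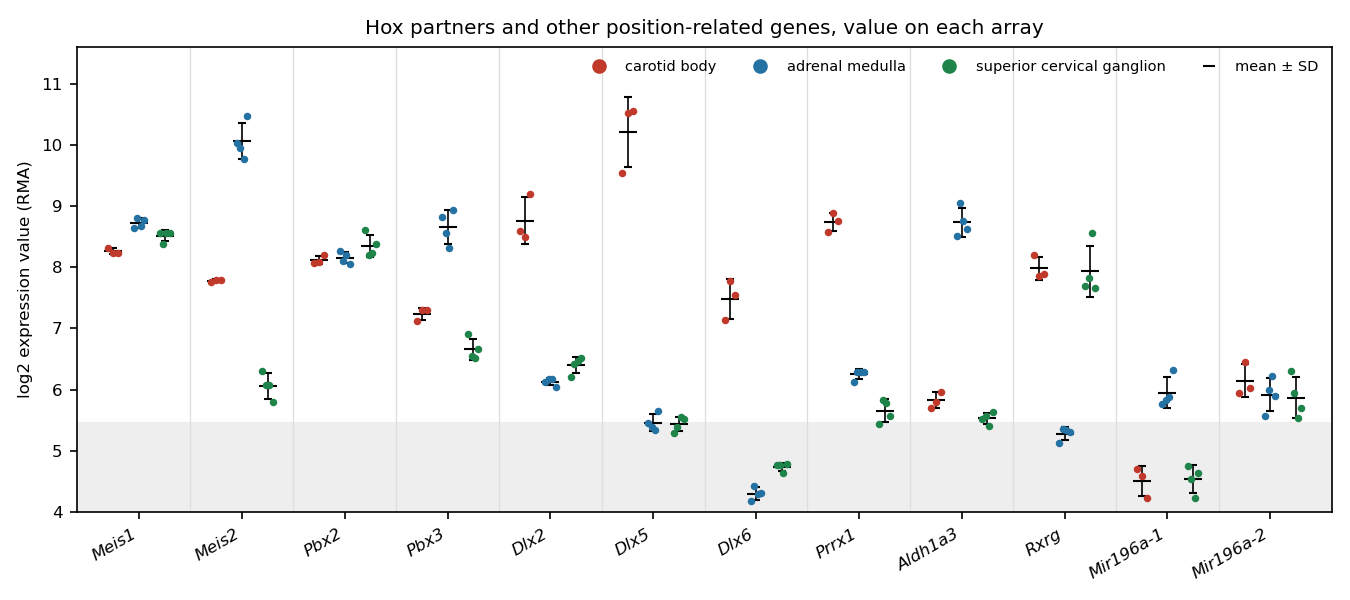
Log2 expression value on every array for Hox partner genes (Meis1, Meis2, Pbx2, Pbx3), pharyngeal regulators (Dlx2, Dlx5, Dlx6, Prrx1), retinoic acid genes (Aldh1a3, Rxrg) and 2 microRNA rows, in 3 carotid body, 4 adrenal medulla and 4 ganglion arrays; bars are the mean ± SD and the grey band ends at 5.45, the highest background bound. The adrenal medulla arrays are highest for Meis2, Pbx3, Aldh1a3 and Mir196a-1, and the carotid body arrays for the Dlx genes and Prrx1.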

How the data were processed

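The submitters' processing notes name Affymetrix Expression Console and RMA, so the values the authors deposited were read as log2 (no source states the base). Software versions and the genome build are not given in the sources used here. Probe effects remain in such values, so levels were compared within a gene only. Rows paired with exactly 1 symbol gave 30142 genes, with the brightest row kept for each of 355 genes that had several. Tissue was the only factor in a limma 3.58.1 fit (lmFit and eBayes, R 4.3.3) over the 11 arrays, tested on simulated data. A replicate is a pool of mice, and p-values rest on the spread between arrays of such pools. Exact repeats of a value on several arrays (19 of 33 members, 55.5% of all genes) mean that this spread may not be measured in full. Replicate numbers were not used as pairs. Correlations of deviations from the tissue means ran from -0.22 to 0.35 for same-numbered arrays and from -0.43 to 0.44 for the others. With 3 or 4 arrays per tissue they cannot show whether same-numbered pools shared mice. A fold is given as "at least" where an array of the dimmer tissue lay under the bound and was raised to it. The members and lists were chosen with earlier results of these data known. Every array is given for called members, at most the 8 with the largest difference per comparison, and from each list at most 4 called genes per comparison are named. Outside that rule, Hoxd8, the members below the call limit that are given with values (Hoxa3, Hoxa4, Hoxa6, Hoxb2, Hoxb3, Hoxb13, Hoxc5, Hoxd1, Hoxd9), Meis1, Pbx2, Mir196a-2 and Hoxb3os were chosen after their values were seen. Alternatives changed the scaling, filters, fit, bound and arrays used. Counts at an unadjusted p are given without the share of all genes at that limit, so they have no background to be read against. Array number (3 or 4 per tissue) limits precision.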

Additional observations from a re-analysis of the deposited data

Results flagged for a closer look

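Of 22 groups of 4 arrays tested (the 11 called members in adrenal medulla and ganglion), 1 was flagged by the size of a gap relative to the range. Hoxc4 read 7.23 on adrenal medulla replicate 3 while the other 3 arrays shared the single value 7.17. The gap is 0.06 on the log2 scale. With 3 equal values any gap fills the whole range, so the ties alone gave this flag. Chance flags about 1 in 20 groups without ties, a rate that does not apply here.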

How the results depend on the processing

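All 420 recomputed differences of the 21 called member comparisons kept their direction and their call. With the replicate block the members called were 10, 2 and 9 (carotid body against adrenal medulla, carotid body against ganglion, adrenal medulla against ganglion), the same counts as without it, so pairing changed no count. Without a limit on the size of the difference, 8833, 10271 and 10363 genes were called instead of 3320, 4187 and 3987; among the members, 2 were then higher in carotid body against adrenal medulla, 10 differed between carotid body and ganglion (6 higher and 4 lower in carotid body), and 1 was higher in ganglion than in adrenal medulla. The counts above background moved with the bound. At the 99th percentile 1 member was above it in carotid body (highest number 2 in Hoxa and none, 0, in Hoxb, Hoxc and Hoxd), 9 in adrenal medulla (0 in Hoxa, 8 in Hoxd) and 2 in ganglion (0 in Hoxb and Hoxd). With olfactory receptors as reference the highest numbers were 4, 9 and 9 for Hoxa, Hoxc and Hoxd in carotid body, 9 for Hoxc in adrenal medulla, and 2, 8 and 9 for Hoxa, Hoxb and Hoxd in ganglion, where 8 members passed. Requiring every array above the bound gave 2 for Hoxa in carotid body. Leaving out 1 array gave 8 to 9 for Hoxd in carotid body and 0 to 2 for Hoxa in ganglion. The cause was not tested beyond these settings. Of 756 recomputed differences of other named genes, 18 kept their direction and lost the call.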
